A study of Rattus norvegicus with 6 samples.

Results

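Serpina3n, Lcn2, Cp, Vim, Nes, Cd44, Osmr, S1pr3 and Steap4 are 9 genes whose transcripts rise when astrocytes become reactive, and they were looked up by symbol among the 16876 genes of the deposited count table. All 9 were present and all 9 passed the filter on low counts, which left 11679 genes. They were compared between 3 libraries of primary rat (Rattus norvegicus) cells exposed for 24 h to PSNPs, polystyrene nanoplastics, and 3 libraries of the same kind of culture exposed for 24 h to IR-813, the name of a near-infrared dye. Both groups are labelled as microglia, shaken loose from mixed co-cultures grown in serum, with no genotype, strain, age or dose given. The labels give IR-813 as the treatment of the comparison libraries, while the deposited columns of these libraries are headed con, and the sources used here do not say whether con means a control other than IR-813. No library is labelled as untreated, and higher or lower always means with PSNPs relative to the libraries labelled IR-813. The design text says that the exposures were sequenced to look for mechanisms behind altered behaviour and neuronal activity. The labels do not say whether each replicate had its own culture or animal, and each p-value therefore reflects library-to-library spread that may be technical.

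Astrocytes respond to injury, infection and inflammatory cytokines by enlarging, rebuilding their cytoskeleton and secreting acute-phase proteins, a state called reactive. Cytokines of the interleukin-6 family that signal through the shared receptor chain gp130 and the transcription factor STAT3 are well-known inducers, as is NF-kB signalling downstream of interleukin-1 and tumour necrosis factor. In mice, microglia that release interleukin-1 alpha, tumour necrosis factor and C1q have been described as a trigger of this state. Several of the 9 genes are not exclusive to astrocytes: Vim and Cd44 are also made by microglia, progenitors and connective tissue cells, and Nes by neural progenitors. In bulk RNA the cell type that made a transcript cannot be told, and fewer cells of a type cannot be told apart from less RNA per cell.

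The promoters of the 3 genes with the largest rises are shown first, because STAT3 and NF-kB are the factors most often linked to this gene group. The letters are the 250 bases before the annotated start in RefSeq (build GRCr8, 5′ to 3′ on the gene's strand), and capitals mark matches to the STAT motif TTCNNNGAA or to the NF-kB consensus, searched on both strands. The files themselves use another build, so these letters carry no coordinates.
Serpina3n: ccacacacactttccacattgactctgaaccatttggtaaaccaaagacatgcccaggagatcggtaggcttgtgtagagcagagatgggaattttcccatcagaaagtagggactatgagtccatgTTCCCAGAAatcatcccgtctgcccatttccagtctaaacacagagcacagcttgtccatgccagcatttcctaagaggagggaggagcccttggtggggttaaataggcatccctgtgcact
Lcn2: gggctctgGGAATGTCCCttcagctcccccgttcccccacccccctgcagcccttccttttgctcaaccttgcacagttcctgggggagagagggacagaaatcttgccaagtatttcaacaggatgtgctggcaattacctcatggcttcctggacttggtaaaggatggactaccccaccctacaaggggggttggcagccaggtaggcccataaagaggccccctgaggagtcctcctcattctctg
Steap4: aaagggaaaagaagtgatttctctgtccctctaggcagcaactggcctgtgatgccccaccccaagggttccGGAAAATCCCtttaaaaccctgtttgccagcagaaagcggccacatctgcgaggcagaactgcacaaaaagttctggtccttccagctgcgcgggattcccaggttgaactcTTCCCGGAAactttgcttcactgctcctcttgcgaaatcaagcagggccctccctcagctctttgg

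The STAT motif stood 123 to 115 bases before the start of Serpina3n and 66 to 58 bases before the start of Steap4. It reads the same on both strands, and 7.67% of the 33469 RefSeq promoter windows of this length held it. The NF-kB consensus was matched in the windows of Lcn2, 242 to 233 bases before the start, of Steap4, 178 to 169 bases before it, and of Vim, and 3.54% of all windows held a match. A loose form of the AP-1 motif, TGANTCA with any base at its centre, was found only in the Osmr window among the 9, as TGATTCA. This form stood in 6.34% of all windows, and the stricter AP-1 consensus was not searched. TATAAA was found in the windows of Cp and Vim, against 12.9% of all windows. No 2 of these motifs overlapped in the 3 windows shown. The windows of Nes, Cd44 and S1pr3 held none of the 4 motifs, which says only that these letters are not there. A match is a description of the sequence and not a measured binding site, and the motifs were chosen with the windows and the expression values known.

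With PSNPs, 5 of the 9 genes rose, S1pr3 fell, and Nes, Cd44 and Osmr did not pass (edgeR quasi-likelihood test, Benjamini-Hochberg adjusted over all 11679 tested genes, adjusted p under 0.05). Among all tested genes 20.9% were called higher and 20.1% lower. The median log2 fold change of the 9 was 0.74, against −0.01 over all tested genes. The PSNPs and IR-813 libraries did not overlap for 7 of the 9, a separation that also held for 61.4% of all tested genes. Leaving out PSNPs replicate 1, IR-813 replicate 1 or IR-813 replicate 2 gave 3 risen genes, and leaving out PSNPs replicate 3 gave 6. S1pr3 was the single fallen gene in each of these. The number of higher genes over the whole table also changed when 1 library was left out, over the range given in the closing section. Astrocyte identity markers moved alongside, with 7 higher and 3 lower of 16 tested, and their part in these counts was not tested. Leaving out IR-813 replicate 2 gave 3 higher markers, and leaving out IR-813 replicate 1 or PSNPs replicate 2 gave 4. Without PSNPs replicate 1 there were 5 higher markers, and without PSNPs replicate 3 there were 9.

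**Figure D1:**
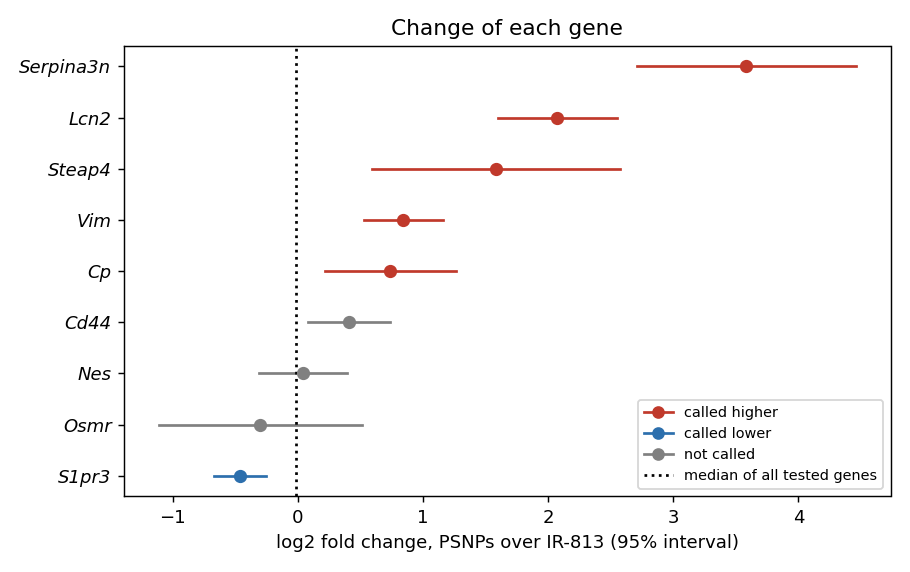
Log2 fold change of each of the 9 genes, PSNPs over IR-813 (x axis), with its 95% interval from the fit (line), coloured by call, and the median of all tested genes as a dotted line. The estimates run from 3.58 for Serpina3n to −0.46 for S1pr3, and the intervals of Nes and Osmr include 0.

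The 3 genes for acute-phase proteins all rose. Serpina3n, which encodes a secreted inhibitor of serine proteases, had 6.62, 3.56 and 5.37 CPM (read counts scaled to TMM-adjusted library size) in PSNPs replicates 1, 2 and 3, against 0.224, 0.512 and 0.555 CPM in IR-813 replicates 1, 2 and 3. Every PSNPs library lay above every IR-813 library, with 67 to 144 counts against 5 to 12 counts per library. The log2 fold change was 3.58 ± 0.37 (estimate ± SE, edgeR adjusted p 0.000597), which placed it 14 from the top among the 11679 tested genes. It was 1.56 on the deposited log2 scale, where a pseudocount understates the change of low genes. Its relatives Serpina3c and Serpina3m had 0 counts in every library, and whether this reflects expression or the way reads were counted was not tested.

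Lcn2 encodes lipocalin 2, a secreted protein that withholds iron from bacteria by binding their siderophores. It had 2126, 1724 and 2546 CPM in the PSNPs libraries and 418, 480 and 622 CPM in the IR-813 libraries. The lowest PSNPs library was thus well above the highest IR-813 library. The group means were 2132 ± 411 CPM with PSNPs and 506 ± 105 CPM with IR-813 (SD, n = 3 each), a log2 fold change of 2.07 ± 0.20 with an edgeR adjusted p of 0.00048. Lcn2 took between 0.169% and 0.248% of all counts in the PSNPs libraries, against between 0.0426% and 0.0645% in the IR-813 libraries.

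Cp encodes ceruloplasmin, a copper-carrying ferroxidase that astrocytes make in a membrane-anchored form. Its levels were 702, 529 and 431 CPM with PSNPs and 267, 314 and 415 CPM with IR-813. The lowest PSNPs library, replicate 3, lay just above the highest IR-813 library, replicate 3, and the other libraries stood further apart. The log2 fold change was 0.74 ± 0.22, with an edgeR adjusted p of 0.0341. The call was lost without PSNPs replicate 1 (edgeR adjusted p 0.0899), PSNPs replicate 2 (0.0567), IR-813 replicate 1 (0.116) or IR-813 replicate 2 (0.112). Over the 12 alternatives its adjusted p lay between 0.00384 and 0.116.

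**Figure D2:**
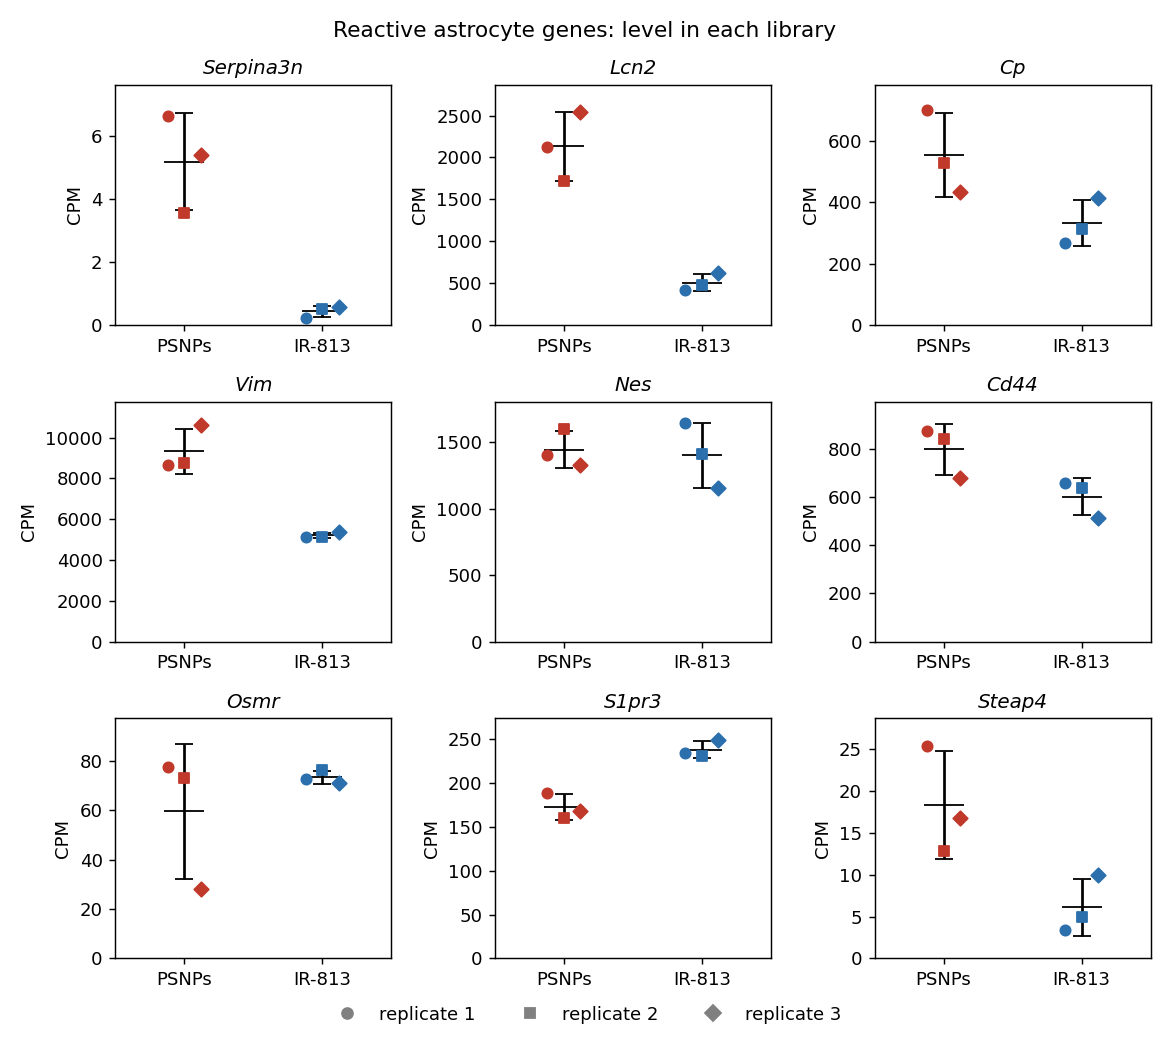
CPM of the 9 genes (y axis, 1 panel per gene, each from 0) in the 3 PSNPs and 3 IR-813 libraries, with points for libraries, a horizontal line for the mean and bars for the SD. PSNPs points lie above all IR-813 points for Serpina3n, Lcn2, Cp, Vim, Cd44 and Steap4 and below them for S1pr3, and PSNPs replicate 3 stands alone at 28.0 CPM for Osmr.

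The 2 intermediate filament genes differed. Vim encodes vimentin, a filament protein that reactive astrocytes make alongside the astrocyte filament protein GFAP. It had 8657, 8741 and 10610 CPM with PSNPs and 5134, 5121 and 5355 CPM with IR-813, so that the groups lay far apart and the IR-813 libraries close together. It rose by 0.84 ± 0.13 on the log2 scale (edgeR adjusted p 0.00309). Nes, which encodes the progenitor filament protein nestin, had 1405, 1596 and 1327 CPM with PSNPs and 1639, 1411 and 1153 CPM with IR-813. These groups overlapped fully, and the log2 fold change was 0.04 ± 0.15 with a 95% interval from −0.31 to 0.39. The sign for Nes turned with library-size scaling (−0.0300) and when PSNPs replicate 2 (−0.0328) or IR-813 replicate 3 (−0.0805) was left out.

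Of the 4 genes for membrane proteins, Steap4 rose, S1pr3 fell and Cd44 and Osmr did not pass. Steap4 encodes a metalloreductase of the plasma membrane and endosomes that reduces iron and copper. It had 25.4, 12.8 and 16.7 CPM with PSNPs, against 3.45, 4.98 and 9.95 CPM with IR-813. The groups did not overlap, although both spread widely, and the log2 fold change was 1.58 ± 0.42 (edgeR adjusted p 0.0221). The call was lost without PSNPs replicate 1 (edgeR adjusted p 0.0641), IR-813 replicate 1 (0.0662) or IR-813 replicate 2 (0.0845). Over the 12 alternatives its adjusted p lay between 0.00027 and 0.0845.

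Cd44 encodes the main receptor for the matrix sugar hyaluronan. Its levels were 873, 840 and 678 CPM with PSNPs and 656, 635 and 512 CPM with IR-813. Every PSNPs library was above every IR-813 library, replicate 3 was the lowest of each group, and the gap between the groups was narrow. The log2 fold change of 0.41 ± 0.14 had an edgeR adjusted p of 0.0528 and a 95% interval from 0.08 to 0.74. Cd44 passed with DESeq2 size factors (adjusted p 0.0446), with the DESeq2 Wald test (0.0236), with limma on the deposited log2 values (0.0444) and once PSNPs replicate 3 was left out (0.00358). Over the 12 alternatives its adjusted p lay between 0.00358 and 0.145.

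Osmr encodes the oncostatin M receptor, a subunit that pairs with gp130. It had 77.5, 73.2 and 28.0 CPM with PSNPs and 72.7, 76.3 and 71.2 CPM with IR-813. PSNPs replicates 1 and 2 lay at the IR-813 level, and PSNPs replicate 3 lay far below every other library. The log2 fold change was −0.30 ± 0.34 (edgeR adjusted p 0.509), with a 95% interval from −1.11 to 0.51, and 0.0407 without PSNPs replicate 3 (edgeR adjusted p 0.543). The same library was also low for the related receptor gene Lifr, with 12.3, 12.5 and 1.25 CPM in PSNPs replicates 1, 2 and 3 and 16.8 to 17.5 CPM with IR-813. The receptor chain gene Il6st had 195 CPM in PSNPs replicate 3, against 314 and 319 CPM in the other PSNPs libraries. This library also stood apart from the other PSNPs libraries across all genes, and the Osmr value without it is given above.

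S1pr3 encodes a receptor for the lipid mediator sphingosine 1-phosphate and was the only fallen gene of the 9. Its levels were 189, 161 and 168 CPM with PSNPs and 235, 231 and 249 CPM with IR-813. The highest PSNPs library was below the lowest IR-813 library, and both groups were tight. S1pr3 fell by 0.46 ± 0.09 on the log2 scale (edgeR adjusted p 0.00636), with a call in all 12 alternatives.

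The 9 genes did not share 1 pattern among replicates of a group. Within the IR-813 libraries, Lcn2, Cp, Vim, Steap4, Serpina3n and S1pr3 were highest in replicate 3, where Nes, Cd44 and Osmr were lowest. Within the PSNPs libraries, Serpina3n, Cp, Cd44, Osmr, S1pr3 and Steap4 were highest in replicate 1, Lcn2 and Vim in replicate 3 and Nes in replicate 2. The coefficient of variation with PSNPs ran from 8.57% for S1pr3 to 46.0% for Osmr. With IR-813 it ran from 2.53% for Vim to 55.5% for Steap4.

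Levels of different genes can be set side by side only per length. In the deposited log2 files the unlogged value was a nearly fixed multiple of the CPM for each gene, 1.39 on average for Lcn2, a short transcript, and 0.163 for Nes, a long one. The scale behaves like a per-length value in these genes, but the sources used here do not define it. On this log2 scale the level of Vim was the highest of the 9 in every library (12.31 to 12.66 with PSNPs, 11.57 to 11.63 with IR-813), followed by Lcn2 (11.21 to 11.84 with PSNPs, 9.18 to 9.75 with IR-813). Nes (7.80 to 8.02 with PSNPs, 7.55 to 8.06 with IR-813) and Cd44 (7.45 to 7.77 with PSNPs, 7.01 to 7.37 with IR-813) came next, and Cp (6.93 to 7.57 with PSNPs, 6.22 to 6.84 with IR-813) overlapped with Cd44 in the PSNPs libraries. S1pr3 (5.51 to 5.74 with PSNPs, 6.03 to 6.14 with IR-813) and Osmr (3.48 to 4.82 with PSNPs, 4.71 to 4.81 with IR-813) were lower. Steap4 (2.38 to 3.22 with PSNPs, 1.09 to 2.09 with IR-813) and Serpina3n (1.49 to 2.12 with PSNPs, 0.16 to 0.36 with IR-813) had the lowest levels. Apart from Cd44 and Cp with PSNPs, no neighbours in this order overlapped within a group.

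Beyond the 9, other genes of the reactive state went both ways. The list counts from here on stand beside 20.9% of all tested genes called higher and 20.1% called lower. Of 16 tested pan-reactive genes outside the 9, 8 rose and 4 fell, with a median log2 fold change of 0.34. The risen count was 4 without PSNPs replicate 1, IR-813 replicate 1 or IR-813 replicate 2. Tspo, which encodes the mitochondrial translocator protein used as an imaging marker of gliosis, rose by 2.45 ± 0.17, while Thbs1, a matrix glycoprotein gene, fell by 4.20 ± 0.23. Gfap did not pass, with 3411 ± 243 CPM with PSNPs and 2950 ± 545 CPM with IR-813 (SD, n = 3 each; log2 fold change 0.21 ± 0.15, edgeR adjusted p 0.308). Of 8 genes described in mice as markers of neurotoxic A1-type reactive astrocytes, 4 rose and 2 fell (median 0.51), or 1 fell with the DESeq2 Wald test. Their risen count was 3 without PSNPs replicate 1, IR-813 replicate 1 or IR-813 replicate 2, and 5 without PSNPs replicate 3. Gbp2, an interferon-induced GTPase gene, rose by 1.28 ± 0.08, and the matrix gene Fbln5 fell by 1.48 ± 0.14. Of 11 tested A2-type genes, described in mice after ischaemia, 3 rose and 5 fell (median −0.42). Tm4sf1 rose by 2.42 ± 0.28 and Slc10a6 fell by 3.05 ± 0.37. Slc10a6 had only 7, 2 and 7 counts in PSNPs replicates 1, 2 and 3, against 41 to 60 counts per library with IR-813.

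All 4 tested genes of the microglial inducers fell with PSNPs, also in each of the 12 alternatives. The cytokine gene Il1a had 1.66 ± 0.474 CPM with PSNPs and 4.24 ± 0.524 CPM with IR-813, and the complement gene C1qa had 46.7 ± 13.7 CPM with PSNPs and 126 ± 20.3 CPM with IR-813 (SD, n = 3 each). C1qb fell by 1.75 ± 0.26 and C1qc by 1.71 ± 0.29 on the log2 scale. Tnf had 2 to 5 counts per library with PSNPs and 1 to 3 with IR-813, and was not tested. Microglia markers moved alongside these genes, with 6 of 10 lower and 0 higher, and their part in the result was not tested.

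Of 7 tested gp130 cytokine genes, 1 rose and 1 fell. Osm, whose product is the ligand of the Osmr protein, fell to 1.03 ± 0.150 CPM with PSNPs, against 2.04 ± 0.544 CPM with IR-813 (SD, n = 3 each; log2 fold change −0.97 ± 0.26, edgeR adjusted p 0.0237). The call of Osm was lost in 4 of 12 alternatives, with adjusted p up to 0.089 without IR-813 replicate 2. Lif (−0.83 ± 0.29), Clcf1 (−0.42 ± 0.19), Ctf1 (−0.26 ± 0.24), Cntf (0.08 ± 0.16) and Il11 (0.39 ± 0.21) did not pass, and Il6 had at most 3 counts in any library. Lif passed as lower with library-size scaling (adjusted p 0.0424), with the DESeq2 Wald test (0.014) and in edgeR without IR-813 replicate 3 (0.029). Clcf1 passed as lower in edgeR without PSNPs replicate 3 (adjusted p 0.0205) or IR-813 replicate 3 (0.0395).

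Of 13 genes for gp130 receptors, kinases, STAT factors and feedback, 3 rose and 1 fell (median 0.18). Stat3 rose by 0.35 ± 0.11 (edgeR adjusted p 0.0415) and its feedback inhibitor gene Socs3 by 0.33 ± 0.11 (0.0466), and each lost its call in 7 of the 12 alternatives. Their highest adjusted p came with IR-813 replicate 1 left out (0.148 for Stat3, 0.169 for Socs3). Pias3, which encodes an inhibitor of STAT3, rose by 0.64 ± 0.08, and the interleukin-6 receptor gene Il6r fell by 0.77 ± 0.10. Without PSNPs replicate 3 this list had 6 risen and 3 fallen genes. Its risen count was 1 with library-size scaling and without PSNPs replicate 1 or any single IR-813 library. The estimates for Jak1 (−0.03, but 0.188 with an adjusted p of 0.00687 in edgeR without PSNPs replicate 3), Jak2 (−0.27), Tyk2 (0.31), Ptpn11 (−0.38), Il6st (−0.26), Lifr (−0.99), Cntfr (0.18) and Il11ra1 (0.21) did not pass. Without PSNPs replicate 3, edgeR called Lifr lower at −0.48 (adjusted p 0.00168), Ptpn11 lower at −0.22 (0.0031) and Tyk2 higher at 0.40 (0.000788). Ptpn11 also passed with library-size scaling (adjusted p 0.0404) and the DESeq2 Wald test (0.0484), and Tyk2 with DESeq2 size factors (0.0471) and the Wald test (0.0402).

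**Figure D3:**
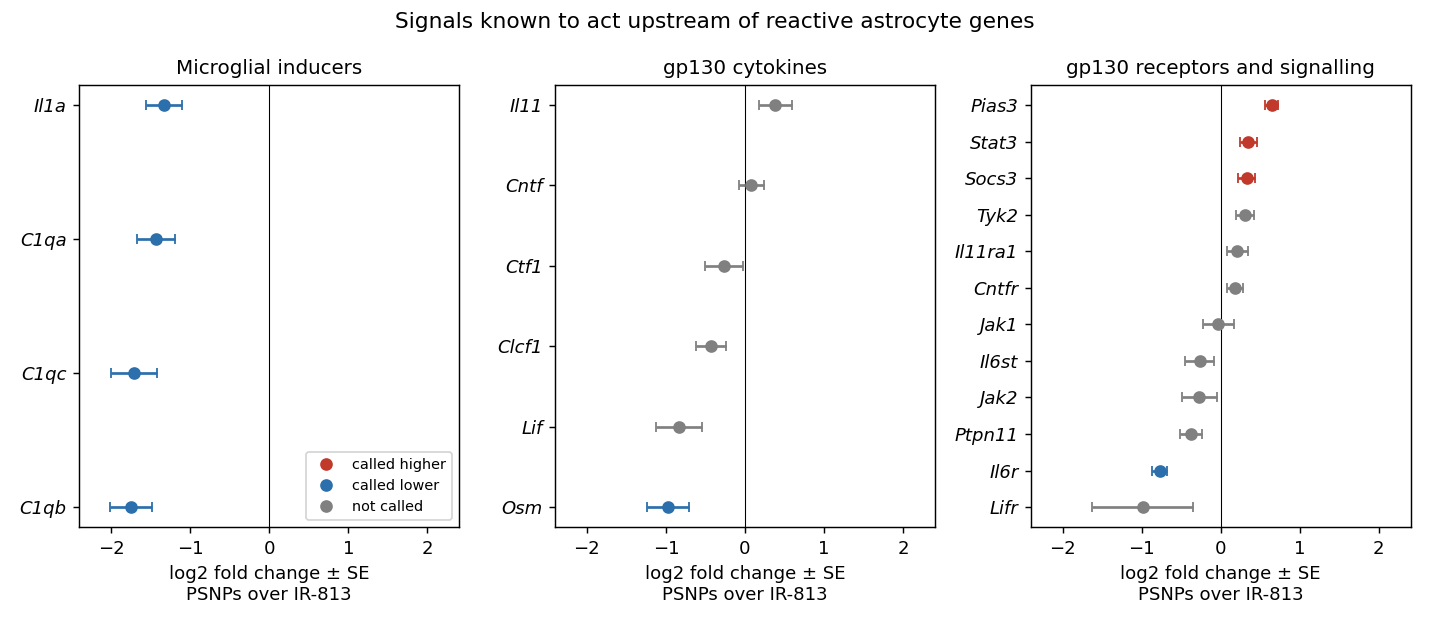
Log2 fold change ± SE, PSNPs over IR-813 (x axis), of genes known to act upstream of the reactive state, as far as they are named in the text, in 3 panels, coloured by call. All 4 tested inducer genes lie between −1.75 and −1.34, the plotted cytokine genes between −0.97 and 0.39, and the plotted receptor and signalling genes between −0.99 and 0.64.

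Genes that act in the same systems as single genes of the 9 went both ways. Of all tested genes, 20.9% were called higher and 20.1% lower. In the sphingosine 1-phosphate system, 1 of 7 tested genes besides S1pr3 rose and 2 fell. The risen count was 2 without PSNPs replicate 3, and the fallen count 1 without PSNPs replicate 1, PSNPs replicate 2, IR-813 replicate 1 or IR-813 replicate 3. The receptor gene S1pr1 went opposite to S1pr3, at 154 ± 10.4 CPM with PSNPs and 96.1 ± 7.13 CPM with IR-813 (SD, n = 3 each), and the kinase gene Sphk1 fell by 1.16 ± 0.24. In the hyaluronan system of Cd44, 3 of 9 rose and 1 fell, with 6 risen without PSNPs replicate 3. The hyaluronan synthase gene Has2 had 85.5 ± 9.94 CPM with PSNPs and 35.8 ± 0.702 CPM with IR-813 (SD, n = 3 each), and Ezr, whose product ezrin links CD44 to actin, rose by 0.86 ± 0.11. Among 11 tested partners in iron and lipocalin handling, 3 rose and 2 fell, with the metalloreductase gene Steap1 up by 1.40 ± 0.20 and the iron exporter gene Slc40a1 down (−0.98 ± 0.10). Of 8 tested serpins besides Serpina3n, 4 rose and 2 fell. With IR-813 replicate 2 left out 1 rose, and with IR-813 replicate 1 or PSNPs replicate 1 left out 2 rose. Serpine2, a thrombin inhibitor gene, had 2029 ± 41.8 CPM with PSNPs and 502 ± 38.9 CPM with IR-813 (SD, n = 3 each), and Serpinf1 fell by 1.80 ± 0.18. Of 11 tested genes for filament, lamina and filament-linking proteins besides Vim and Nes, 5 rose and 3 fell (1 fell without IR-813 replicate 2). Among them the keratin gene Krt8 stood at 1.80 ± 0.20 and the neuronal filament gene Ina at −2.58 ± 0.15.

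Library depth and cell markers apply to every value above. Total counts lay between 19166605 and 22553507 in the PSNPs libraries and between 20837099 and 21920602 in the IR-813 libraries. PSNPs replicate 3 stood apart on the second principal component (35.5, against −22.9 and −24.0 in the other PSNPs libraries and 2.76 to 4.56 in the IR-813 libraries). The 17 astrocyte identity markers summed to between 11492 and 12878 CPM with PSNPs and between 9108 and 11649 CPM with IR-813, with a median log2 fold change of 0.27, among them Aldh1l1, at 87.9 ± 1.16 CPM with PSNPs and 31.0 ± 4.32 CPM with IR-813 (SD, n = 3 each), and Fgfr3, at a log2 fold change of −0.67 ± 0.12. Their defining genes Gfap, Slc1a3 and Aqp4 were abundant in all libraries, and Gjb6 had 0 counts with PSNPs and at most 4 with IR-813. The 10 microglia markers summed to between 724 and 924 CPM with PSNPs and between 1035 and 1362 CPM with IR-813, with P2ry12 (−2.30 ± 0.22) among those that fell, and none stood at 0. Libraries labelled as microglia thus held more astrocyte than microglia marker RNA by these sums, which are over lists of unequal size.

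The other marker lists are given next, against 20.9% called higher and 20.1% called lower among all tested genes. Of 12 oligodendrocyte-lineage markers 11 fell and 1 rose (4504 to 5215 CPM summed with PSNPs, 7259 to 8419 CPM with IR-813), with Bcas1 at −1.90 ± 0.09 and Sox10 at −1.85 ± 0.13. Of 9 tested neuron markers 6 fell and 0 rose (168 to 207 CPM with PSNPs, 484 to 507 CPM with IR-813), with Gad1 at −4.19 ± 0.17 and Tubb3 at −1.73 ± 0.10. Of 7 tested fibroblast, pericyte and endothelial markers 3 fell and 0 rose (77.8 to 88.9 CPM with PSNPs, 99.0 to 167 CPM with IR-813), with Acta2 at −3.60 ± 0.24 and Pdgfrb at −0.60 ± 0.13. Col1a2 was among 2858 of the 16876 symbols with 0 counts in every library, while Col1a1 of the same list had 324 to 1078 counts. Whether such a 0 reflects expression or the way reads were counted was not tested. Of 8 progenitor and cycling markers 3 rose, Sox2 by 0.34 ± 0.08, and Hes5 fell by 2.43 ± 0.45. Hes5 had only 1, 5 and 3 counts in PSNPs replicates 1, 2 and 3, against 16 to 21 counts per library with IR-813. The risen count was 0 without IR-813 replicate 1 or IR-813 replicate 2, and 1 without PSNPs replicate 1 or with library-size scaling. Of 6 tested ependymal and choroid plexus markers Foxj1 rose by 0.49 ± 0.12, and Dynlrb2 (0.60 ± 0.28) did not pass. Foxj1 lost its call without PSNPs replicate 1, IR-813 replicate 1 or IR-813 replicate 2 (edgeR adjusted p 0.0516 to 0.0646), and 1 gene of that list fell without PSNPs replicate 3. The part of these shifts in the results was not tested.

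**Figure D4:**
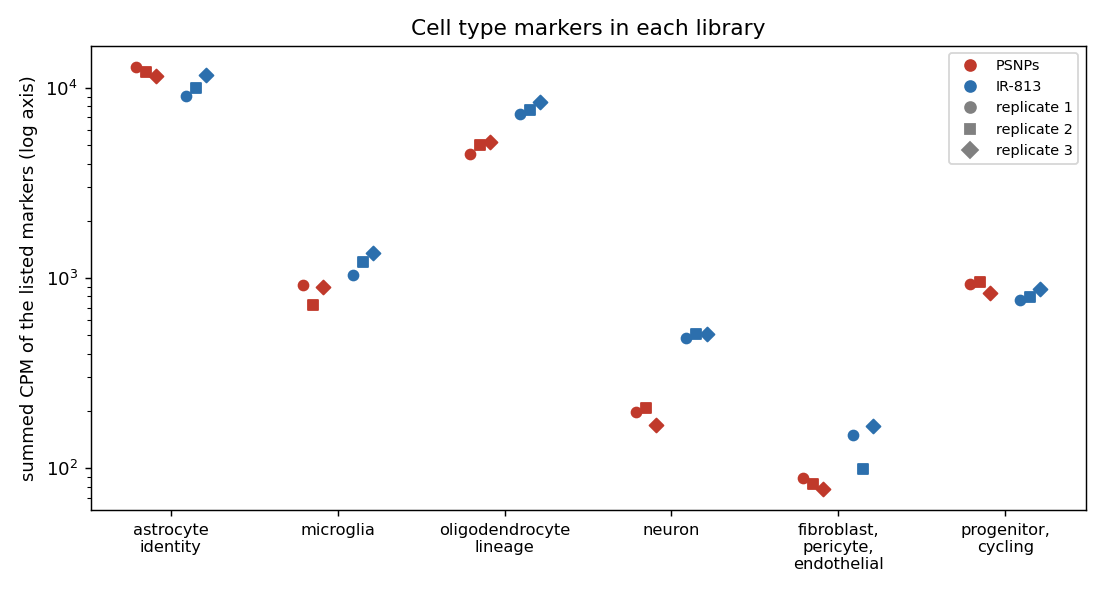
Summed CPM of the listed markers of each cell type (y axis, log scale) in each library, PSNPs in red and IR-813 in blue, with a symbol per replicate. Astrocyte markers have the highest sum in every library. The microglia, oligodendrocyte-lineage, neuron and fibroblast, pericyte and endothelial sums are lower in all 3 PSNPs than in all 3 IR-813 libraries. The astrocyte and progenitor sums overlap between the groups.

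Set against the median log2 CPM of the 17 astrocyte identity markers of the same library, 4 of the risen genes kept the PSNPs libraries above all IR-813 libraries. The mean difference between PSNPs and IR-813 on that relative log2 scale was 2.94 for Serpina3n, 1.65 for Lcn2, 1.22 for Steap4 and 0.41 for Vim. Cp (0.31) and Cd44 (−0.02) overlapped between the groups on it, as did Nes (−0.37) and Osmr (−0.86). S1pr3 stayed lower in all PSNPs libraries (−0.89). The median was the value of S100b in every PSNPs library and of Gpr37l1 in every IR-813 library. S100b was itself called higher (0.55 ± 0.15) and Gpr37l1 lower (−0.70 ± 0.14), so the reference moved between the groups. It lay between 7.74 and 8.15 with PSNPs and between 7.35 and 7.72 with IR-813. The relative differences are descriptions with no test.

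The tested genes with profiles most like each of the 9 were found by the root mean square difference of centred log2 CPM over the 6 libraries. The search covered 9283 genes outside the 9 whose symbol was in the RefSeq table and whose group mean reached 5 CPM with PSNPs or IR-813. The closest match of all was that of Vim with Lztfl1 (0.0251) and Chpf (0.0291), a chondroitin synthesis gene. Lcn2 was matched by the interferon-induced gene Ifi27 and the glutathione transferase gene Gsta4 (0.122 each), and Serpina3n by the organic cation exporter gene Slc47a1 (0.263) and by Lyc2 (0.305). For Cp the nearest genes were Msr1, a macrophage scavenger receptor gene (0.0520), and the lipoprotein lipase gene Lpl (0.0809). Steap4 was nearest to the MHC class I genes RT1-T24-3 (0.145) and RT1-S3 (0.153), whose read assignment is uncertain among similar copies. Cd44 was nearest to the collagen gene Col5a1 (0.0563) and Pak6 (0.0650), S1pr3 to B3gnt2 (0.0454) and Plekhf2 (0.0482), Osmr to genes that include Foxo3 (0.0419), and Nes to Mdm2 (0.0699) and Mtmr7 (0.0705). A small difference means a like profile over 6 libraries in 2 groups and nothing more.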

How the data were processed

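RNA was measured in 6 libraries, 3 per treatment, grouped by sample title. The authors deposited whole-number read counts per gene symbol, and log2 values in 1 file per library, with a scaling that the labels leave undefined. Column names were joined to samples through those files. The tool bcl2fastq and the build mRatBN7.2 are listed without roles per the submitters' processing notes. The sources used here give no aligner, counter or strand setting, so reads of overlapping or near-identical genes cannot be assigned with certainty.

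Counts were filtered with filterByExpr, scaled by TMM and tested with edgeR 4.0.16 (R 4.3.3) by glmQLFit and glmQLFTest, with treatment as the only term and Benjamini-Hochberg adjustment over all tested genes at 0.05. An SE is the log2 fold change divided by the root of F. Intervals of 95% use the fit's degrees of freedom. Log2 CPM used a prior count of 2. DESeq2 1.42.0 and limma 3.58.1 were used for alternatives. The 12 alternatives were DESeq2 size factors, library-size scaling, no low-count filter, the DESeq2 Wald test, limma on the deposited log2 values, a replicate block, and leaving out each of the 6 libraries. Tests were run on simulated data of 11625 genes for the PSNPs and IR-813 comparison. Of 100 genes given a log2 fold change of 2, up or down, 99% were called, and of 100 given 1, 77%. The changed genes were drawn only from those with a mean above 1 CPM, so these shares do not cover lower genes. False calls made up 5.38% of the calls. Far fewer genes were changed there than were called in the data, and no library was made to stand apart. These rates therefore need not hold for the data.

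The 9 genes and all lists were chosen with earlier results of these data known, and the promoter motifs and the scale relative to astrocyte markers after values were seen. Named genes were the 9, the 2 smallest p of each list, every gene of the gp130 and inducer lists, and the 2 nearest profiles of each of the 9. Gfap, Slc1a3, Aqp4, Gjb6, S100b, Gpr37l1, Col1a1, Col1a2, Serpina3c and Serpina3m were named after their values were seen. A few genes that the rule gave are not reported here. Of the symbols, 14386 were in the RefSeq table, all 9 among them. Gfap, Stat3, Socs3, Clcf1, Sphk1, Serping1, Synm and Nefl stand in more than 1 list. Counts of sequenced reads are not independent molecules.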

Additional observations from a re-analysis of the deposited data

How the results depend on the processing

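Serpina3n, Lcn2, Vim and S1pr3 kept their direction and their call in all 12 alternatives, with log2 fold changes from 1.56 to 3.81, from 1.93 to 2.25, from 0.74 to 0.90 and from −0.54 to −0.41. Leaving out 1 library at a time gave 3 to 6 risen and 1 fallen gene of the 9, 1339 to 3591 higher genes and 1473 to 3478 lower genes over the whole table. Nes ranged from −0.0805 to 0.17 and Osmr from −0.54 to 0.04 across these fits, and Nes was −0.0300 with library-size scaling. The sign turned for Nes without PSNPs replicate 2 (−0.0328) or IR-813 replicate 3 (−0.0805) and for Osmr without PSNPs replicate 3 (0.0407). Of 55 other genes that the naming rule gave, recomputed by a choice made after seeing the data, 34 of 39 calls held in all alternatives, and the 5 others (Osm, Stat3, Socs3, Foxj1 and Sox2) were lost in at least 1. The sign turned for Cntf without PSNPs replicate 3 (−0.0202) or IR-813 replicate 1 (−0.00833) and for Jak1 without PSNPs replicate 3 (0.188, adjusted p 0.00687). Leaving out 1 library gave −0.0202 to 0.158 for Cntf and −0.156 to 0.188 for Jak1. The cause was not tested. Library-size scaling gave 40.5% higher among all called genes in place of 50.9%, with the same counts for the 9. Same-numbered replicates correlated in their deviations by −0.00511, 0.0147 and 0.121, so the numbers were not taken as pairs. With a replicate block, 5 of the 9 were higher and 1 lower, with 2035 and 2124 genes over the table, where Cp lost its call (adjusted p 0.0775) and Cd44 and Lif gained one (adjusted p 0.0242 and 0.00734). The block lowered the risen count to 1 for the gp130 receptor and signalling list and for the progenitor list, and the fallen count to 1 for the A1-type list. An exact 2-sided test of 3 against 3 libraries cannot go below p = 0.1 and was left out. Depth limits Il6 and Tnf, at a few counts per library, and also Hes5 and Slc10a6, at 1 to 7 counts per library with PSNPs.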
